A study of Homo sapiens with 6 samples.

Results

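The RNA recovered with CyCoNP was set directly against the RNA recovered with a control probe set, to find which transcripts separated the 2 pull-downs in either direction. CyCoNP, listed as LINC02381 (ENSG00000250742), is a long non-coding RNA (lncRNA) of neural cells. SK-N-BE, a human neuroblastoma line, had been kept in retinoic acid differentiation medium until day 1.5 in every sample. Biotinylated probes against CyCoNP gave the 2 CyCoNP pull-down libraries (CyCoNP PD), and the 2 control libraries (LacZ PD) were made with probes against LacZ, a gene of bacteria. Both pull-downs were done in native, uncrosslinked extract with dextran sulfate. These are 4 of the 6 libraries of the series, and the 2 input libraries were not used. Of the 60676 entries of the gene table, the 10585 with at least 10 counts summed over the 4 libraries were compared. The study's text calls the CyCoNP PD libraries biological replicates. The labels do not say whether the libraries came from separate cultures, and p-values measure the spread between these libraries of 1 cell line.

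In an antisense pull-down, probes hybridize with their target RNA in a native extract and streptavidin beads draw the probes out, together with RNAs attached to the target. RNAs that stick to beads or tubes, or that pair with a probe by partial complementarity, are drawn out as well, and abundant RNAs are carried over most readily. A control probe set without a target in the cell shows the RNAs that come down regardless of the target. Such a comparison needs enough control reads to show a low level.

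The probes are 22 oligonucleotides of 20 bases. All 22 matched, as reverse complements, 1 annotated CyCoNP transcript of 1462 bases, between its bases 129 and 1294. Shown first is probe 1 in full, then the probes with the longest exact complementary stretch to the transcripts of called genes other than CyCoNP, then the probes with the longest stretch to SAMD4B and NCAM1, transcripts the study followed up. Capitals mark the stretch that is exactly complementary to a transcript of the named gene, 5′ to 3′.
CyCoNP, probe 1: TGGCGAAAAGGGAGGGTGAA
PRKRIP1, probe 7: taatcagGGGTGTTCTGCTC
ENSG00000274422, probe 21: attgCTCATTTCACTTCtgt
ENOSF1, probe 2: gggaaCTGGAGGGAGAGGtc
SAMD4B, probe 1: tggcGAAAAGGGAGGGtgaa
NCAM1, probe 12: cccaacaTGGGGGAGAAaaa
PHF19, probe 19: tttGTGAGGCCAGAGAACAG
The last probe is shown for PHF19, a Polycomb-associated chromatin protein, whose stretch of 17 bases was the longest of any gene tested apart from CyCoNP. It had 69 and 15 counts in CyCoNP PD against 0 and 8 in LacZ PD, and its log2 fold change was 0.14 (SE 0.95), with no call.

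Depth differed between the groups more than between replicates. CyCoNP PD held 1512148 and 514882 counts, and LacZ PD held 18870 and 140115, so that the CyCoNP PD libraries together were 12.7 times as deep. A level of 3 counts, used here as the detection limit, is 18.9 CPM (counts scaled to a library total of 1000000) over both LacZ PD libraries together and 1.48 CPM over both CyCoNP PD libraries. The reads carry no molecular identifiers, so PCR copies count as separate reads, and the intervals and limits given cover counting error only. The cell line was checked by 11 neuroblastoma markers, and all 11 were detected, with 0 called and a median log2 fold change of 0.50. Of the skin, blood and liver markers, 1 skin marker and none of the others reached the count minimum.

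CyCoNP, the mRNAs of NCAM1, SAMD4B, PCGF2 and TULP3, and the mitochondrial mRNAs MT-ND5 and MT-CO2 were higher in CyCoNP PD. Among the few higher in LacZ PD were the mRNA of AGPAT2 and counts at the mitochondrial transfer RNA gene MT-TS2. In edgeR's quasi-likelihood F test on TMM-scaled libraries, a scaling that takes most genes as alike, with p-values adjusted by Benjamini-Hochberg, 57 genes were higher in CyCoNP PD and 4 were higher in LacZ PD. A gene was called where its adjusted p lay under 0.05 and its log2 fold change exceeded 1 in either direction. These are 0.538% and 0.0378% of the genes tested. At an unadjusted p under 0.05 the numbers were 520 and 31 of the 10585 genes tested. Here and below, genes without any difference would pass that unadjusted cutoff at a rate of 0.05. Over all genes the log2 fold change had a median of 0.57 toward CyCoNP PD, and it moved to 0.38 with the DESeq2 size factors and to 0.13 with library size alone. It also depends on the libraries and the filter, at 4.96 without LacZ PD 2, 0.21 without CyCoNP PD 1 and -0.01 among the 2169 genes with 10 or more LacZ PD counts. Fold changes below are given as fitted, with the median over all genes not subtracted. The counts rest on all 4 libraries. Most or all calls higher in CyCoNP PD were lost with any 1 library left out, in fits that keep 1 library in a group. With all 6 libraries in one edgeR fit the number higher in CyCoNP PD was 0. In that fit 575 genes leaned toward CyCoNP PD and 38 toward LacZ PD at an unadjusted p under 0.05, of 10585 tested. The number higher in LacZ PD was between 0 and 3 without 1 library. With DESeq2 the number higher in CyCoNP PD was 33, of which 29 were among the 57.

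**Figure D1:**
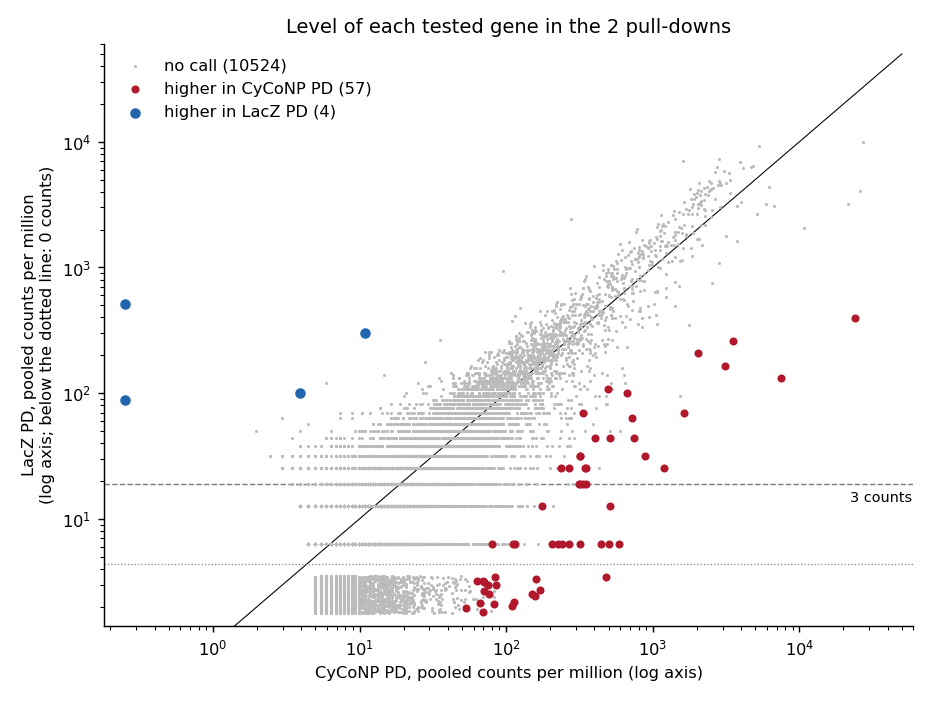
Each point is 1 of the 10585 genes tested, with its pooled CPM in CyCoNP PD on the horizontal axis and in LacZ PD on the vertical axis, both logarithmic. Red points are the 57 genes higher in CyCoNP PD and blue points the 4 higher in LacZ PD. The solid line marks equal levels, the dashed line 3 counts over both LacZ PD libraries, and points under the dotted line have 0 LacZ PD counts, spread at random in height for visibility. Points at the left edge have 0 CyCoNP PD counts. Most red points lie at or under the dashed line.

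CyCoNP checks the labels. Its gene lies on chromosome 12, 54126019 to 54147485 (GRCh38, plus strand), and it took 11687 and 3507 counts in CyCoNP PD against 1 and 20 in LacZ PD, or 7729 and 6811 CPM against 53 and 143 CPM. Both CyCoNP PD libraries were far above both LacZ PD libraries, and replicates differed by less than 3-fold. The pooled ratio, its share of both CyCoNP PD libraries together over that of both LacZ PD libraries, was 56.7 (95% interval 37.1 to 91.7), and the fit gave a log2 fold change of 6.39, SE 1.29, adjusted p = 0.000751. The call was lost without any 1 of the 4 libraries, at adjusted p-values between 0.0911 and 0.621, while the log2 fold change stayed between 5.86 and 8.03.

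Besides CyCoNP, 7 transcripts had been followed by RT-qPCR in the pull-down. GAPDH was the negative control, and the other 6 were chosen on these samples, so their direction here is not independent evidence. Of the 8 together, 5 were called higher in CyCoNP PD and none higher in LacZ PD, with a median log2 fold change of 4.27. NCAM1, a neural cell adhesion molecule that guides neurite growth (chromosome 11, 112961275 to 113278436), had 1945 and 477 counts in CyCoNP PD against 3 and 1 in LacZ PD. Its LacZ PD level rested on 3 counts in the shallowest library and 1 in the other, and its pooled ratio was 47.5 (95% interval 18.5 to 174). The fit gave a log2 fold change of 5.36, SE 1.07, adjusted p = 0.000725. That call held without CyCoNP PD 1 and was lost without CyCoNP PD 2, LacZ PD 1 or LacZ PD 2, with log2 fold changes of 5.38, 7.43 and 3.74. SAMD4B, a relative of the RNA-binding translational repressor Smaug, had 488 and 537 counts in CyCoNP PD against 1 and 0 in LacZ PD, with a pooled ratio of 80.4 (95% interval 14.4 to 3178). Its share was higher in CyCoNP PD 2 than in CyCoNP PD 1, and the groups did not overlap (log2 fold change of 6.83, SE 1.24, adjusted p = 0.000105). PSMC4, an ATPase subunit of the proteasome cap, had 2620 and 714 counts in CyCoNP PD against 3 and 8 in LacZ PD (log2 fold change of 4.73, SE 1.01, adjusted p = 0.00166). UBE2V2, a ubiquitin-conjugating enzyme variant, had 2357 and 1744 counts in CyCoNP PD against 8 and 25 in LacZ PD (log2 fold change of 3.81, SE 0.98, adjusted p = 0.0218). The call of SAMD4B held in 7 of 12 alternatives, that of PSMC4 in 6 of 13 and that of UBE2V2 in 4 of 13, the last 2 in no fit without 1 library.

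The other 3 of these transcripts had no call. CENPF, a kinetochore and nuclear matrix protein of dividing cells, had 395 and 1474 CPM against 159 and 243 CPM, with a log2 fold change of 2.58 (SE 0.85). Its 2 CyCoNP PD libraries were above both LacZ PD libraries, although CyCoNP PD 1 was closer to LacZ PD 2 than to CyCoNP PD 2. IGF2, a fetal growth factor, had 17525 and 32510.4 CPM against 4239.5 and 3040.4 CPM, with no overlap and a log2 fold change of 3.42 (SE 1.39, unadjusted p = 0.0137). IGF2 was called in 3 of 13 alternatives, none of them without 1 library, and its log2 fold change ran from 2.78 to 3.56 among them. GAPDH, the glycolytic enzyme that served the study as a negative control, had 5076 and 4176 CPM against 7313 and 6252 CPM. Both of its LacZ PD values were the higher ones by CPM, whereas the TMM-scaled log2 fold change was 0.05 (SE 1.03), so its sign turned with the scaling.

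The 12 smallest p-values among genes higher in CyCoNP PD included CyCoNP, NCAM1 and SAMD4B. PCGF2, a RING finger subunit of Polycomb repressive complex 1 (chromosome 17, 38733898 to 38749817), led them with 459 and 509 counts in CyCoNP PD against 0 and 0 in LacZ PD. Its CyCoNP PD share was higher by at least 25.3-fold, taking 3 counts over both LacZ PD libraries as the limit (adjusted p = 4.75e-06). Folds given as at least, here and below, set the group without counts at 3 counts and are not confidence bounds. For PCGF2 the exact 95% interval of the pooled ratio began lower, at 20.5. TULP3, which carries membrane proteins into primary cilia, had 363 and 823 counts in CyCoNP PD against 0 and 1 in LacZ PD, a pooled ratio of 93 (95% interval 16.7 to 3677). C1orf122, an open reading frame of little known function, had 650 and 243 counts in CyCoNP PD against 0 and 1 in LacZ PD, a pooled ratio of 70 (95% interval 12.5 to 2769.5). USF2, a basic helix-loop-helix transcription factor that binds E-boxes, had 354 and 288 counts in CyCoNP PD against 0 and 1 in LacZ PD, a pooled ratio of 50.4 (95% interval 9.01 to 1992). In these 3 the control level rested on a single count, so the upper ends of the intervals carry little information.

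PRKRIP1, a nuclear protein of the spliceosome, had 1501 and 305 counts in CyCoNP PD against 1 and 4 in LacZ PD (log2 fold change of 4.98, SE 1.02, adjusted p = 0.000914). ZRSR2, which recognizes the 3′ splice site of minor introns, had 252 and 399 counts in CyCoNP PD against 0 and 3 in LacZ PD (log2 fold change of 5.05, SE 1.04, adjusted p = 0.00111). TP53I11 had 203 and 500 counts in CyCoNP PD against 0 and 4 in LacZ PD (log2 fold change of 4.90, SE 1.01, adjusted p = 0.00111). The lncRNA ENSG00000274422 had 86 and 328 counts in CyCoNP PD against 0 and 1 in LacZ PD (log2 fold change of 6.08, SE 1.22, adjusted p = 0.000725). In all 4 genes both CyCoNP PD libraries stood above both LacZ PD libraries. ENSG00000274422 was uneven between the CyCoNP PD libraries, at 56.9 and 637 CPM. With 1 library left out the log2 fold change reached lows of 3.38 for that gene, 2.76 for TP53I11, 3.46 for ZRSR2 and 4.33 for PRKRIP1, and each call held in at most 1 of those 4 fits. RAD23B, a shuttle factor that brings ubiquitinated proteins to the proteasome, was also uneven. It had 1016 and 20 counts in CyCoNP PD against 0 and 2 in LacZ PD, so CyCoNP PD 1 took 672 CPM and CyCoNP PD 2 38.8 CPM, and without CyCoNP PD 1 its log2 fold change fell to 1.75. Several of the 12 share exon positions with a neighbour on the other strand, as SAMD4B does with PAF1, C1orf122 with YRDC and ZRSR2 with AP1S2. On the same strand, TULP3 shares exon positions with RHNO1, and PRKRIP1 with ENSG00000239969 and ENSG00000290830. Whether the counting used strand is not given in the sources used here, and counts of both kinds are uncertain.

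Across the 57 genes the control level was at or near its limit. LacZ PD had 0 counts in both libraries for 19 of them, 1 to 3 counts over both for 17, and more than 3 for 21. For the 19 at 0, the fold with LacZ PD set at 3 counts ran from 2.82 to 25.3. The largest count of any called gene in LacZ PD 1 was 8, and 38 of the 57 had none there. Both CyCoNP PD libraries were above both LacZ PD libraries by CPM in 53 of the 57, beside 27.7% of all genes tested. The calls use the same counts, so this order among the 57 is largely set in advance. The 4 that overlapped were ENSG00000226138, SARDH, MTCYBP35 and SF3B4, named here after their values were seen. The calls of MTCYBP35, SF3B4, NBR2, RBMS2, SLC38A10 and FMC1 held in none of the alternatives. In 10 of the 57, one CyCoNP PD library was over 10 times the other on CPM + 1. The processed pseudogene ENSG00000226138 had 322 and 0 against 0 and 0 counts, so its call came from CyCoNP PD 1 alone. SF3B4, a component of the spliceosomal SF3b complex, had 1024 and 10 against 1 and 6, and its log2 fold change was -0.996 without CyCoNP PD 1.

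By annotation, 44 of the 57 were protein-coding (77.2% against 85.9% of all genes tested) and 7 were lncRNAs (12.3% against 5.53%). Beside CyCoNP and ENSG00000274422, the lncRNAs were HOXD-AS2, MHENCR, LINC00632, ENSG00000272163 and NBR2. LINC00632, which gives rise to the circular RNA CDR1as in neural tissue, had 564 and 114 against 1 and 2 counts. The calls also held 5 pseudogenes, namely NDUFAF2P1, MTCYBP35, ENSG00000226138, MTND2P28 and LRRC37A4P. Their counts depend on how reads were shared out among similar copies and are uncertain. NDUFAF2P1 had 194 and 350 against 0 and 4 counts and its parent NDUFAF2, an assembly factor of respiratory complex I, had 2638 and 4473 against 6 and 35, so both were called in the same direction. Apart from CyCoNP, ENSG00000274422 and HOXD-AS2, the genes of this paragraph and of the next 2 paragraphs were picked once their values were known.

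Further called mRNAs covered diverse roles. Among genes of chromatin and transcription, GATAD2B, a subunit of the NuRD complex, had 515 and 191 against 0 and 3 counts, NFAT5, the osmotic stress factor, 375 and 445 against 1 and 6, and ZMIZ1, a SUMO ligase-like coactivator, 307 and 171 against 0 and 4. BCL3, BHLHE40 and ZNF627 were at 0 in both LacZ PD libraries, with folds of at least 3.71, 3.74 and 8. Among signalling genes, GNAO1, the neuronal G protein alpha subunit, had 379 and 256 against 0 and 3, PAK2, a kinase downstream of Rac and Cdc42, had 275 and 372 against 0 and 5, and PRKACA, the catalytic subunit of protein kinase A, had 475 and 173 against 1 and 4. CAMK2N1, an inhibitor of the calcium/calmodulin kinase CaMKII, had 390 and 98 against 0 and 1. In these 4 no CyCoNP PD value overlapped a LacZ PD value by CPM. PABPC1L, a poly(A)-binding protein best known from oocytes, and C20orf96 were at 0 in LacZ PD, with folds of at least 5.96 and 8.31. RFC1, the large subunit of the clamp loader of DNA replication, had 1165 and 300 against 0 and 10. POPDC3, a membrane protein that binds cyclic AMP, had 1140 and 365 against 1 and 6.

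Few LacZ PD counts stood behind the remaining calls. CTDNEP1, a phosphatase of the nuclear envelope, had 358 and 352 against 1 and 3 counts and SESN3, a sestrin that restrains mTORC1, had 72 and 71 against 0 and 0. PPDPF had 513 and 834 against 2 and 14 and SLC38A10, a putative amino acid transporter, 302 and 54 against 0 and 2. YLPM1, a nuclear protein that binds RNA, had 107 and 60 against 0 and 0 and RBMS2, a single-stranded nucleic acid binding protein, 156 and 70 against 0 and 1. All 6 had both CyCoNP PD libraries on top, but the calls of SLC38A10 and RBMS2 held in 0 of 12 alternatives. CPNE7, a copine that binds membranes when calcium rises, had 22 and 86 against 0 and 0, and SARDH, a mitochondrial enzyme of sarcosine breakdown, had 50 and 183 against 1 and 0. ENOSF1 had 17 and 156 against 0 and 0, and the lncRNA MHENCR had 35 and 135 against 0 and 0. In these 4 the share was over 10 times higher in CyCoNP PD 2 than in CyCoNP PD 1. NBR2, an lncRNA, had 75 and 53 against 0 and 0, with a call that held in 0 of 12 alternatives, and NUDT17, a Nudix hydrolase, 93 and 62 against 0 and 0.

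The mitochondrial genome separated the pull-downs unevenly. Its 13 mRNAs encode subunits of the respiratory chain and ATP synthase, and are cut from long polycistronic transcripts, so that neighbours are made together. Of the 13, 2 were called higher in CyCoNP PD and 0 higher in LacZ PD, beside 0.538% and 0.0378% of all genes tested. Their median log2 fold change was 1.73, with 12 above the median of all genes. With 1 library left out the list median ran from 1.21 to 2.16. Without LacZ PD 2 it was 1.71, below the 4.96 of all genes. The 13 mRNAs took 8.16% and 5.16% of counts in CyCoNP PD, against 2.75% and 1.58% in LacZ PD. MT-ND5, a proton-pumping subunit of complex I (chromosome M, 12337 to 14148), had 39555 and 9048 counts in CyCoNP PD against 6 and 57 in LacZ PD. Its pooled ratio was 60.5 (95% interval 47.3 to 78.8), with a log2 fold change of 6.38, SE 1.55, adjusted p = 0.0103. MT-CO2, which takes electrons from cytochrome c in complex IV, had 4791 and 1543 counts in CyCoNP PD against 4 and 22 in LacZ PD (log2 fold change of 4.66, SE 1.05, adjusted p = 0.00327). For both genes replicates differed by less than 2-fold and the groups did not overlap. The call of MT-ND5 held in 4 of 13 alternatives and that of MT-CO2 in 5 of 13, in no fit without 1 library. MT-CO3, a further subunit of complex IV, had 1737 and 1181 CPM against 11023 and 6509 CPM, with both LacZ PD libraries above both CyCoNP PD libraries and no call (log2 fold change -1.90, SE 1.01, unadjusted p = 0.0603). It was called higher in LacZ PD in 3 of 13 alternatives, none of them without 1 library. MT-ATP6, whose gene abuts that of MT-CO3, had 4623 and 548 against 27 and 93 counts, and MT-CO1, the catalytic subunit of complex IV, had 889 and 445 against 8 and 57, neither with a call. MT-CYB and MT-ND1 had log2 fold changes of 3.11 (SE 1.21) and 2.68 (SE 1.30) without a call, and were called in 3 and 1 of 13 alternatives. MT-ND6, the sole mRNA encoded on the light strand, had 954 and 90 against 2 and 6 counts and missed the threshold at an adjusted p of 0.055 (log2 fold change 3.28, SE 0.91). MT-RNR2, the large ribosomal RNA, took the most counts of any gene by mean share in each pull-down, with 20760.5 and 46218 CPM against 15209 and 9278 CPM, and was not called. Nuclear copies of mitochondrial genes can take reads from them, and 2 of the called pseudogenes, MTND2P28 with 339 and 7 against 0 and 0 counts and MTCYBP35 with 450 and 5 against 1 and 0, are such copies.

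In the other direction, 4 genes were called higher in LacZ PD, and 2 of these rested on LacZ PD 2 alone. MT-TS2, the gene of a mitochondrial serine transfer RNA of 59 bases (chromosome M, 12207 to 12265), had 81 counts in LacZ PD 2 and 0 in the other 3 libraries. The authors removed reads under a minimum length that exceeds these 59 bases. Counted reads were therefore longer than the gene, and which transcript they came from was not tested. The LacZ PD share of MT-TS2 was at least 344-fold higher, taking 3 counts over both CyCoNP PD libraries as the limit. MT-TS2 lies just before MT-ND5, which went the other way, and of the 5 mitochondrial transfer RNA genes tested no other was called. MT-TS1, the gene of the other serine transfer RNA, had 2939 and 832 against 1 and 196 counts. MT-TS1 is also shorter than the minimum read length and begins where MT-CO1 ends, on the opposite strand. Its counts therefore cannot be read as a level of the mature transfer RNA. FMC1-LUC7L2, a readthrough locus (chromosome 7, 139341360 to 139422599), had 14 counts in LacZ PD 2 and 0 elsewhere, at least 59.5-fold higher on the same limit. It shares exons with FMC1, an assembly factor of ATP synthase that was called higher in CyCoNP PD at 90 and 45 against 0 and 0 counts in a call that held in 0 of 12 alternatives, and with LUC7L2, a splicing factor at 113 and 23 against 1 and 5 counts and a log2 fold change of 1.04. Reads that start in the shared exons could be assigned to any of these loci, so these opposite calls are uncertain. Without LacZ PD 2 neither of the 2 genes had a count left.

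AGPAT2, which makes phosphatidic acid in the endoplasmic reticulum (chromosome 9, 136673143 to 136687457), had the smallest p among those with counts in every library. It had 14 and 8 counts in CyCoNP PD against 4 and 44 in LacZ PD, or 9.26 and 15.5 CPM against 212 and 314 CPM (log2 fold change of -4.03, SE 0.87, adjusted p = 0.00188). Both LacZ PD libraries were over 10 times the higher CyCoNP PD library, and the call held in 7 of 13 alternatives, none of them without a library. ENSG00000284934, a protein-coding locus that shares exons with DIABLO (chromosome 12, 122207662 to 122227534), had 4 and 4 counts in CyCoNP PD against 1 and 15 in LacZ PD (log2 fold change of -3.84, SE 1.05, adjusted p = 0.048). Its call held in 1 of 12 alternatives. In the same comparison 11% of all genes had both LacZ PD libraries above both CyCoNP PD libraries by CPM.

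The next genes in that direction by p-value, with a log2 fold change below -1, had no call. TIMM17B, a channel subunit of the mitochondrial inner membrane translocase, had 132 and 61 counts in CyCoNP PD against 6 and 142 in LacZ PD (log2 fold change -2.39, SE 0.79, adjusted p = 0.225). SNRPG, a core Sm protein of the spliceosomal snRNPs, had 417 and 148 counts in CyCoNP PD against 14 and 369 in LacZ PD (log2 fold change -2.26, SE 0.84, adjusted p = 0.402). OS9, a lectin of endoplasmic reticulum quality control, had 48 and 24 counts in CyCoNP PD against 5 and 37 in LacZ PD, and BDP1, a subunit of the RNA polymerase III factor TFIIIB, had 45 and 12 against 3 and 25. In these 4 the groups did not overlap by CPM. The other 4 were ENSG00000280122 at 3 and 9 against 0 and 19 counts, ENSG00000205485 at 4 and 2 against 0 and 10, LINC01607 at 4 and 0 against 0 and 8 and PITHD1 at 8 and 1 against 1 and 8, all with 1 or 0 counts in LacZ PD 1.

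Of the functional lists, those of housekeeping genes held 1 call, PSMC4. With 0.538% of all genes called higher in CyCoNP PD, few or no calls are what lists of these sizes would hold at that rate, so a count of 0 here and below says nothing particular about a list. Cytosolic ribosomal proteins, 79 tested, had 0 calls and a median log2 fold change of 0.06, with 4 above the median of all genes. Their share of counts was 13% and 15.2% in CyCoNP PD, against 12.3% and 23.4% in LacZ PD, so LacZ PD 1 lay below both CyCoNP PD libraries and LacZ PD 2 above both. RPLP1, a protein of the ribosomal stalk, had 5000.2 and 6335 CPM against 3392 and 10056 CPM. Nuclear-encoded subunits of the respiratory chain and ATP synthase, 76 tested, had 0 calls, a median of 0.05 and 11 above the median of all genes. By CPM, 24 of the 76 had both LacZ PD libraries on top, but only 1 after TMM scaling, so this order turned with the scaling. Translation factors (39 tested), chaperones (30) and glycolysis enzymes (17) had 0 calls and medians of 0.10, 0.25 and 0.07. Each of these 5 medians lay below the median of all genes in edgeR with TMM, with the DESeq2 size factors and with library size alone. The gap was -0.51 for ribosomal proteins and -0.53 for respiratory chain subunits. Among genes with 10 or more LacZ PD counts it shrank to -0.04 and -0.08, with -0.09 for translation factors, -0.01 for chaperones and -0.09 for glycolysis enzymes. With 1 library left out the ribosomal protein median itself ran from -0.58 to 1.12, highest without LacZ PD 2. Among genes expected at 3 or more LacZ PD counts, the median of all genes was 0.52. Proteasome subunits, 31 tested, had 1 call, PSMC4, and a median of 0.35.

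RNA-binding and regulatory lists held scattered calls. Of 40 hnRNP and SR splicing factors, which coat nascent transcripts and set splice choices, 1 was called, the poly(C)-binding protein PCBP2 with 328 and 671 counts in CyCoNP PD against 1 and 16 in LacZ PD (log2 fold change of 3.38, SE 0.88, adjusted p = 0.0263). The median of that list was 0.80, with 26 of 40 above the median of all genes. Of 50 cell cycle genes, the proliferation marker MKI67 was called, with 321 and 355 counts in CyCoNP PD against 0 and 11 in LacZ PD (log2 fold change of 3.29, SE 0.88, adjusted p = 0.0379), and the median was 0.33. The calls of PCBP2 and MKI67 each held in 3 of 13 alternatives, in no fit without 1 library, where their log2 fold changes fell as low as 1.49 and 2.12. Of 16 HOX cluster genes, which set segment identity along the body axis, 2 were called, the antisense lncRNA HOXD-AS2 with 411 and 133 counts in CyCoNP PD against 0 and 1 in LacZ PD (log2 fold change of 5.71, SE 1.22, adjusted p = 0.00166) and the transcription factor HOXC4. HOXC4 had 64 and 78 counts in CyCoNP PD against 0 and 0 in LacZ PD, at least 3.71-fold higher (adjusted p = 0.0164), and it shares exons with HOXC6, which had 20 and 4 against 1 and 3 counts and a log2 fold change of -0.90. Of 17 neural adhesion molecules only NCAM1 was called, and the median was 0.52. L1CAM, a paralogous axonal adhesion molecule, had 120 and 40 against 1 and 9 counts and NRCAM had 236 and 86 against 2 and 10, with log2 fold changes of 0.78 (SE 0.87) and 1.47 (SE 0.85). Whether NCAM1 differed from the other members was not tested. The medians of these lists moved with 1 library left out, from 0.49 to 1.08 for the splicing factors, -0.02 to 1.95 for cell cycle genes, 1.09 to 5.21 for HOX genes and 0.66 to 3.74 for adhesion molecules, with the highest value without LacZ PD 2 in each.

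The remaining lists had 1 call or none. The IGF axis, 13 tested, had 0 calls and a median of 1.77, which was 0.56 without CyCoNP PD 1 (7 tested), 2.93 without LacZ PD 2 and 0.93 with DESeq2. In this list the H19 transcript, an imprinted lncRNA next to IGF2, had 157 and 0 against 1 and 0 counts. Very long mRNAs, 34 tested, had 0 calls and a median of 1.22, and 6 of them were at 0 in LacZ PD. That median was 0.39 without CyCoNP PD 1 and 3.85 without LacZ PD 2. CHD7, a chromatin remodeller of neural crest development, had 316 and 225 against 2 and 4 counts and an adjusted p of 0.0732, and MAPRE3, a microtubule plus-end protein of neurons on the cytoskeleton list, had 834 and 484 against 4 and 15 counts and an adjusted p of 0.092. Cytoskeleton and neurite outgrowth genes (49 tested), sympathoadrenal and neuronal transcription factors (28), granin, neuropeptide and transmitter genes (23), snoRNA host genes (26), well-known lncRNAs (18), replication-dependent histones (15) and secretory and matrix genes (18) had 0 calls and medians between 0.15 and 0.84. Of 5 targets of the microRNA miR-4492, 4 were tested and NCAM1 was the one called. SLC18A3, the vesicular acetylcholine transporter, had 11 and 6 against 0 and 0 counts, and CTSV, a lysosomal protease, had 54 and 11 against 2 and 3 with a log2 fold change of 0.05 (SE 1.05).

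Apart from CyCoNP, no called gene had an exact probe stretch of 14 bases or more. The longest stretch of the other 56 had a median of 10.5 bases and a maximum of 13, and all genes tested had a median of 10 and 53 genes without a call had 14 bases or more. A stretch of 12 or more bases was present for 12 of the 56 (21.4%), beside 10.2% of all genes and 9.39% of the 2558 genes as high in CyCoNP PD as the lowest called gene. These shares were not tested, and their part in the calls was not tested. The median length of the canonical transcripts of the 56 was 2498 bases, between 2070 for the genes as high in CyCoNP PD and 2852 for all genes. Their median GC content was 49.2%, against 47.2% and 47.5%. Weighted by counts, the median transcript length of the libraries was 1559 and 1559 bases in CyCoNP PD, against 1640 and 1256 in LacZ PD.

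Genes near CyCoNP were examined within 200000 bases. Of the 13 tested neighbours, HOXC4, whose gene ends 69989 bases before CyCoNP begins, was the one called. SMUG1, a uracil DNA glycosylase encoded on the opposite strand across the CyCoNP gene, had 156 and 71 counts in CyCoNP PD against 0 and 3 in LacZ PD and a log2 fold change of 3.09 (SE 1.03) without a call. CBX5, the heterochromatin protein HP1 alpha on the far side, had 502 and 134 against 4 and 31 counts and a log2 fold change of 0.95 (SE 0.78).

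Depth set what could be seen. At its share of the CyCoNP PD libraries, a gene would have reached 3 counts over both LacZ PD libraries in 5265 of 10585 cases, and in LacZ PD 1 alone in 935 (8.83%). For the other 5320 genes (50.3%), a level in CyCoNP PD above that of LacZ PD was not detectable at this depth. Of the 57 genes higher in CyCoNP PD, 56 would have been expected at 10 or more LacZ PD counts at equal share, with a median of 49.8. Among the 1418 genes expected at 10 to 30 LacZ PD counts, 25 had none and 21 were called higher in CyCoNP PD. At 100 or more, 0 of 253 had none and 11 were called. The 4 genes higher in LacZ PD were all expected at under 3 LacZ PD counts. Expected counts come from the same CyCoNP PD counts as the calls, so where the calls of each direction fall is partly set in advance. For genes leaning to LacZ PD the limit is the shallow control itself, since a gene needed 18.9 CPM there to reach 3 counts.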

How the data were processed

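Pull-down RNA was turned into PCR-amplified cDNA libraries and sequenced by Nanopore. The authors basecalled with Guppy, removed short reads with Nanofilt and aligned with minimap2 2.24-r1122 to GRCh38. They assigned reads to Ensembl genes with Bambu and deposited unnormalized counts per gene, 1 column per library. The same values deposited as CPM were not used. Genes with at least 10 counts over the 4 libraries were tested in R 4.3.3 with edgeR 4.0.16 (TMM, quasi-likelihood F test, SE from the F statistic). The fit was also run on simulated counts with the same spread for every gene, which does not measure its error rate in these data. The alternatives were DESeq2 1.42.0, other scalings and filters, a block for the replicate number, and each library left out in turn. Replicates were separate libraries, with a chi-square of 14.3 (CyCoNP PD) and 4.11 (LacZ PD) per degree of freedom. GENCODE v44 held 10558 of the 10585 genes and gave symbols, positions and transcripts. Pooled ratios carry exact conditional binomial intervals. Genes named are those the study measured by RT-qPCR, the 12 smallest p-values among calls in each direction (filled up with uncalled genes for LacZ PD), called members and the 3 highest members of each list, and the 5 genes with the largest share in each pull-down. Other genes were named after their values were seen. Members and lists were chosen with earlier results of these data known.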

Additional observations from a re-analysis of the deposited data

How the results depend on the processing

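The 57 calls higher in CyCoNP PD became 12 with the DESeq2 size factors in edgeR, 33 with DESeq2, 36 with DESeq2 and the replicate block, 2 among genes with 10 counts in LacZ PD, 0 with filterByExpr (189 at an unadjusted p under 0.05) and 0 with all 6 libraries in one fit. They were 54 with library size alone and 48 without a filter, and 0 to 20 without 1 library. The 4 calls higher in LacZ PD became 8 under scaling by library size, 2 with DESeq2, with or without the replicate block, and with edgeR and the block, 1 with 10 counts in LacZ PD, 0 with filterByExpr (30 at an unadjusted p under 0.05) and with all 6 libraries (38), and 0 to 3 without 1 library. CyCoNP lost its call with filterByExpr (log2 fold change 6.13), with all 6 libraries (6.38) and without 1 library (5.86 to 8.03), and NCAM1 with filterByExpr (5.11), with all 6 libraries (5.38) and, apart from CyCoNP PD 1, without 1 library (3.74 to 7.43). The replicate numbers mark no stated batch, and same-numbered libraries deviated together at a correlation of 0.262. With them as a replicate block in edgeR, 43 genes were higher in CyCoNP PD, 41 of them among the 57, and CyCoNP lost its call (6.51). SF3B4 ranged from -0.996 to 4.22 without 1 library and reversed without CyCoNP PD 1. NCAM1 could not be fitted among genes with 10 counts in LacZ PD. The cause of these changes was not tested. Depth limits the control: 3 counts are 159 CPM in LacZ PD 1 and 21.4 CPM in LacZ PD 2.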
